A study of Macaca mulatta with 20 samples.

Results

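The genes of the proteasome and of its regulators were described in liver of rhesus monkeys (Macaca mulatta). Members were the genes whose symbol begins with PSMA, PSMB, PSMC, PSMD, PSME, PSMF or PSMG followed by a digit, together with POMP, and 49 of 18288 genes in the count table matched. Of these, 47 reached at least 10 counts in 5 or more of the 20 libraries. The genes below that level were PSMA8 and PSMB11, which encode the subunits specific to testis and thymus, with a mean level at year 0 of 0.0040 and 0.030 TPM (transcript abundance per length, scaled to a fixed total). The 47 genes comprised 14 subunits of the constitutive 20S core (7 of the alpha ring and 7 of the beta ring), 17 subunits of the 19S regulator (6 ATPases and 11 others), 5 immunoproteasome genes, 7 assembly factors, 3 other activators or inhibitors, and PSMC3IP. PSMC3IP carries a matching name but encodes a cofactor of meiotic recombination.

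RNA was sequenced from liver biopsies of 10 animals. The Control group ate a control diet (animals 001, 005, 006, 009 and 010) and the CR group a calorie-restricted diet (animals 004, 007, 008, 011 and 012). Each animal gave a biopsy at enrolment (year 0) and another after 2 years on its diet (year 2), which made 4 groups of 5 libraries. Year 0 therefore compares animals that were assigned to different diets, at enrolment. The labels used here give no age, sex or origin of the animals.

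Proteasomes degrade proteins that have been tagged with ubiquitin. The 20S core is a barrel of alpha and beta rings with its proteolytic sites inside, and the 19S regulator binds, unfolds and feeds in the substrates. In immune cells, and in other cells under interferon, the subunits PSMB8, PSMB9 and PSMB10 take the place of the constitutive catalytic subunits PSMB5, PSMB6 and PSMB7 during assembly, and the resulting immunoproteasome yields peptides suited to class I antigen presentation.

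Library totals ran from 20883559 to 31440640 counts in 19 libraries and were 15421789 in Control 009 at year 2. The year 2 libraries of Control 001 and Control 009 stood apart: albumin RNA took 8.57% and 5.42% of their counts, against 10.6% to 15.8% elsewhere, and their scaling factors by the trimmed mean of M values (TMM) were 0.763 and 1.66. Hepatocyte markers, 13 of 15 listed being in the table, summed to 54820 CPM (counts scaled to the TMM-corrected library total) in Control 009 at year 2 and to between 158900 and 261800 CPM in the other libraries. In bulk tissue, fewer cells of a type and less RNA per cell cannot be told apart.

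The constitutive core was the most abundant component. At year 0, across both diets, the level per transcript length was highest for PSMB4 (204 ± 27.4 TPM, SD, n = 10) and PSMB1 (182 ± 25.4 TPM), both structural subunits of the beta ring. The catalytic subunits PSMB6, PSMB5 and PSMB7 had levels of 153 ± 14.1, 145 ± 7.92 and 136 ± 10.3 TPM. PSMB6 and PSMB5 lay within an SD of each other, while PSMB7 stood below PSMB5 by more than the SD of PSMB5 and less than its own. Within the beta ring PSMB2 stood lowest at 23.9 ± 3.63 TPM, and within the alpha ring the level ran from 16.1 ± 1.21 TPM for PSMA5 to 106 ± 9.35 TPM for PSMA7. These subunits occur in equal number in the assembled particle, but their RNA levels per transcript length differed several-fold. In CPM, which is not scaled for length, PSMA5 and PSMB2 were not the lowest of their rings. In Control at year 0, PSMA5 was at 40.45 CPM and PSMA3 at 39.0 CPM, and PSMB2 was at 57.3 CPM and PSMB3 at 41.3 CPM.

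Among the 19S ATPases, which form the unfolding ring, the level ran from 40.8 ± 3.42 TPM for PSMC4 to 129 ± 11.0 TPM for PSMC5. Among the other 19S subunits it ran from 19.3 ± 1.38 TPM for PSMD11 to 83.6 ± 6.26 TPM for the ubiquitin receptor PSMD4. The assembly factors spanned 6.00 ± 1.13 TPM for PSMG4, which helps to build the alpha ring, to 87.2 ± 9.81 TPM for POMP, the maturation factor of the core. The nuclear activator PSME3 stood at 17.4 ± 2.67 TPM, the activator PSME4 at 18.1 ± 2.91 TPM and the inhibitor PSMF1 at 40.2 ± 2.93 TPM.

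The immunoproteasome genes fell into separate ranges. PSME1 and PSME2, which form the interferon-inducible activator cap, had levels of 159 ± 36.0 and 130 ± 30.6 TPM, near those of the constitutive catalytic subunits. PSMB8, PSMB10 and PSMB9 had levels of 35.2 ± 17.5, 23.0 ± 10.1 and 19.2 ± 12.6 TPM. The SD of log2 CPM within a diet at year 0, pooled over both diets, was between 0.43 and 0.51 for these 3 catalytic subunits. The median was 0.26 over 13482 genes. The spread of PSMB9 and PSMB10 was wider in CR, where animal 004 was highest. PSMB9 was at 6.43 ± 1.27 CPM in Control and 12.2 ± 6.86 CPM in CR. PSMB10 was at 9.16 ± 1.04 and 12.8 ± 5.54 CPM, and PSMB8 at 14.2 ± 4.25 and 23.8 ± 9.09 CPM. PSME1 and PSME2 had an SD of 0.23 and 0.27, PSMC3IP one of 0.44, and the assembly factors a median of 0.19 with PSMG3 highest at 0.29. The median was 0.15 in the alpha ring, 0.18 in the beta ring, 0.12 in the 19S ATPases and 0.14 in the other 19S subunits. No test was made of this difference in spread.

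**Figure D1:**
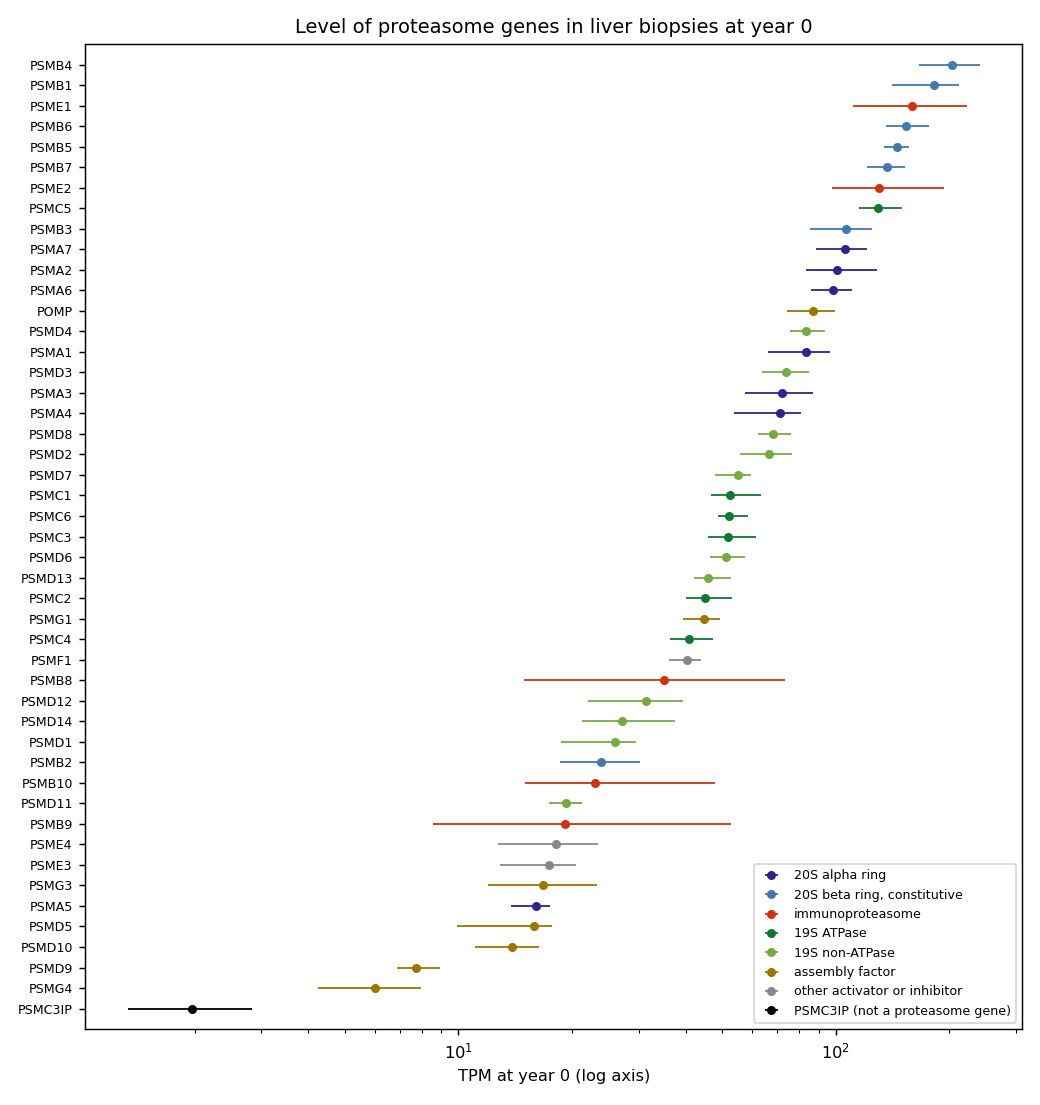
Level at year 0 of the 47 genes in TPM on a log axis, ordered from highest to lowest; points are means over 10 animals, lines run from the lowest to the highest animal, and colours mark the role. PSMB4 stands highest at 204 TPM, and the lines of PSMB8, PSMB9 and PSMB10 are long beside those of the core and 19S genes.

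At year 0, CR animals had lower values than Control animals for all 14 constitutive core genes and all 17 genes of the 19S regulator, and higher values for all 5 immunoproteasome genes. The differences in the core and 19S were small, with median log2 differences of -0.26 and -0.23, while the median over all 13244 genes tested was -0.015. None of the 47 members passed an adjusted p of 0.05 by edgeR's quasi-likelihood test, where 0.242% of all genes (32) did. At an unadjusted p under 0.05, 19 members (40.4%) were lower in CR against 9.07% of all genes. These were 9 core genes, 8 of the 19S and 2 assembly factors.

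PSMC3, an ATPase of the 19S base, had the smallest p of all members. Its values at year 0 were 41.5, 51.3, 53.4, 45.9 and 52.3 CPM in Control 001, 005, 006, 009 and 010. In CR 004, 007, 008, 011 and 012 they were 36.7, 38.0, 39.5, 40.9 and 37.8 CPM. Every CR animal stood below every Control animal, Control 001 being the nearest. The log2 difference was -0.34 (SE 0.085, edgeR adjusted p = 0.0897).

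PSMC6, another ATPase of the same ring, had the next smallest p. It ranged from 45.7 to 51.2 CPM in Control and from 38.5 to 42.7 CPM in CR, again without overlap (log2 difference -0.26, SE 0.068, edgeR adjusted p = 0.0932). For PSMB1, of the beta ring, Control animals 001, 005, 006, 009 and 010 had 83.6, 106, 105, 81.5 and 94.0 CPM. The CR animals 004, 007, 008, 011 and 012 had 72.1, 58.6, 61.3, 81.5 and 73.0 CPM. The highest CR animal, 011, and the lowest Control animal, 009, were almost level (log2 difference -0.43, SE 0.12, edgeR adjusted p = 0.101).

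The ubiquitin receptor PSMD4 lay between 48.3 and 54.4 CPM in CR and between 57.2 and 71.4 CPM in Control (log2 difference -0.28, SE 0.086, edgeR adjusted p = 0.134). The alpha subunit PSMA3 had the smallest p of its ring, at 30.1 ± 4.29 CPM in CR and 39.0 ± 3.33 CPM in Control (SD, n = 5 each), with overlapping groups (log2 difference -0.37, edgeR adjusted p = 0.125). POMP stood at 55.2 ± 6.74 CPM in CR and 67.7 ± 9.98 CPM in Control, also with overlap (log2 difference -0.29, edgeR adjusted p = 0.237). In all, CR lay below Control without overlap in 5 members (PSMA7, PSMB1, PSMC3, PSMC6 and PSMD4), or 10.6%, against 2.15% of all genes.

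The catalytic subunits showed smaller differences of the same sign: -0.18 for PSMB5 (SE 0.081), -0.26 for PSMB6 (SE 0.11) and -0.24 for PSMB7 (SE 0.093), with edgeR adjusted p of 0.274, 0.255 and 0.212. Among the remaining regulators, PSME3 and PSME4 were at 0.16 and 0.10 and PSMF1 at -0.12, none past the threshold. Leaving out any 1 animal kept the sign in 36 of the 38 members that were lower. Without Control 001, PSMC3 passed at an edgeR adjusted p of 0.0353, or 2.13% of members, where 2.55% of all genes passed in that fit. Without Control 001 and 009 together, 3 members passed (PSMB4, PSMC3 and PSMD13, the last named after its values were seen), or 6.38%, against 1.69% of all genes. DESeq2 on the same counts called 8 members lower, PSMA3, PSMA7, PSMB1, PSMB4, PSMC1, PSMC3, PSMC6 and PSMD4, against 2.31% of all genes called lower.

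The size of the year 0 difference depended on the scale. In the authors' TPM values (limma on log2(TPM + 1)) the median log2 difference over all genes was 0.12, and that over the members was -0.036. Relative to all genes the members then stood at -0.15, and 36 of 47 lay below the median of all genes, including 14 of 14 core genes and 15 of 17 genes of the 19S. Taken without that shift, 26 of 47 members were below 0, with 12 of 14 core genes and 11 of 17 genes of the 19S.

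**Figure D2:**
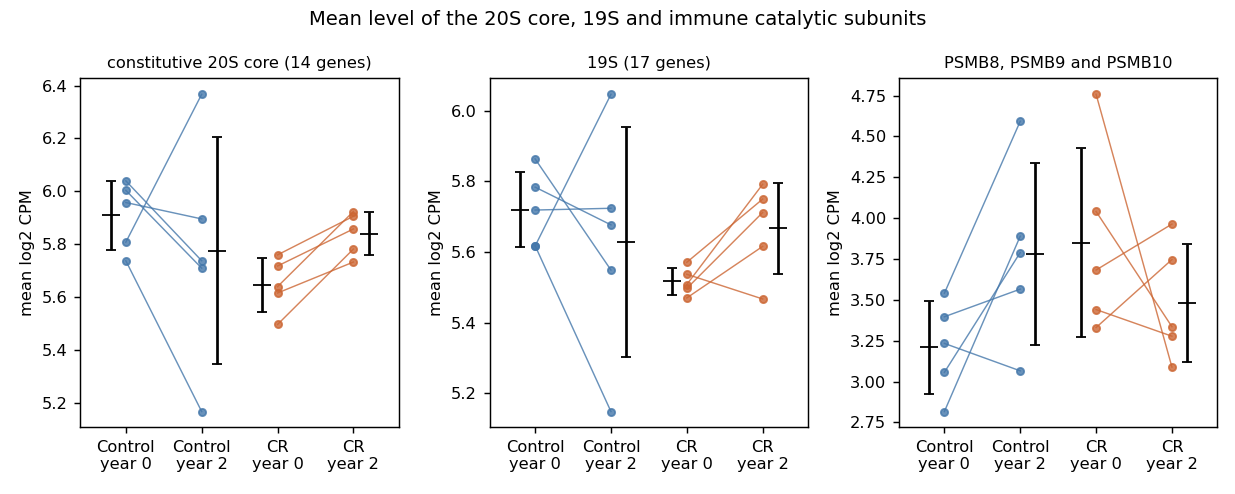
Mean log2 CPM of the 14 constitutive core genes, the 17 genes of the 19S and the 3 immune catalytic subunits in every library; lines join the biopsies of an animal, and black marks are the mean and SD of 5 animals. The CR animals at year 0 lie between 5.50 and 5.76 for the core and between 5.47 and 5.57 for the 19S, and for both lists the most extreme year 2 values are those of Control 001 and 009.

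The immunoproteasome genes went the other way at year 0, most of all the 3 catalytic subunits, with a median log2 difference of 0.75. PSMB9 was at 7.75, 6.73, 4.74, 5.53 and 7.38 CPM in Control 001, 005, 006, 009 and 010. It was at 24.4, 8.42, 10.9, 9.46 and 8.06 CPM in CR 004, 007, 008, 011 and 012. Every CR animal was above every Control animal, and animal 004 stood far above the rest of its group. The log2 difference was 0.93 (SE 0.31, edgeR adjusted p = 0.154).

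Without animal 004 that difference was 0.52. PSMB9 was the only member higher in CR without overlap, or 2.13% of members against 2.84% of all genes. DESeq2 called it higher (adjusted p = 0.0454), as it did 3.58% of all genes. At an unadjusted p under 0.05 by edgeR, PSMB8 and PSMB9 were higher (4.26% of members), against 9.21% of all genes.

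PSMB8 was at 20.5, 12.5, 9.15, 13.1 and 16.0 CPM in Control 001, 005, 006, 009 and 010. In CR 004, 007, 008, 011 and 012 it was at 37.7, 16.7, 28.3, 19.9 and 16.7 CPM. The groups overlapped, since Control 001 stood above 3 CR animals, and animals 004 and 008 were highest. The log2 difference was 0.75 (SE 0.27, edgeR adjusted p = 0.187), and 0.52 without animal 004.

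PSMB10 had 9.16 ± 1.04 CPM in Control and 12.8 ± 5.54 CPM in CR (SD, n = 5 each), with animal 004 highest at 21.6 CPM and CR 012 lowest of all at 7.58 CPM. Its log2 difference was 0.49 (SE 0.25, edgeR adjusted p = 0.331) and 0.22 without animal 004. The activator genes differed least, with log2 differences of 0.18 for PSME1 and 0.16 for PSME2 (edgeR adjusted p = 0.518 and 0.627), and 0.088 and 0.033 without animal 004.

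Most markers of immune cells were higher in CR at year 0 as well. Summed macrophage markers (19 of 20 in the table, none at 0 throughout) ranged from 738 to 1318 CPM in Control and from 1399 to 1643 CPM in CR at year 0, and 18 of 18 tested were higher in CR, with a median log2 difference of 0.71. Summed lymphocyte markers (24 of 24 in the table) ranged from 60.1 to 99.9 CPM in Control and from 103 to 192 CPM in CR, with 20 of 23 tested higher. CD4, carried by helper T cells and also by macrophages of primates, was the lymphocyte marker that passed (log2 difference 0.81, edgeR adjusted p = 0.0364). The highest lymphocyte sum was in animal 004, the animal with the highest PSMB8, PSMB9 and PSMB10.

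Hepatocyte markers were lower in CR for 10 of 13, with a median log2 difference of -0.25. Their sum hardly differed, with a mean of 220100 CPM in Control and 219600 CPM in CR at year 0. ASGR2, part of the receptor by which hepatocytes clear desialylated glycoproteins, passed (log2 difference -0.57, edgeR adjusted p = 0.0442). Endothelial markers (13 of 14 in the table) summed to between 366 and 670 CPM in Control and between 555 and 755 CPM in CR. The part of these cell types in the proteasome values was not tested.

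**Figure D3:**
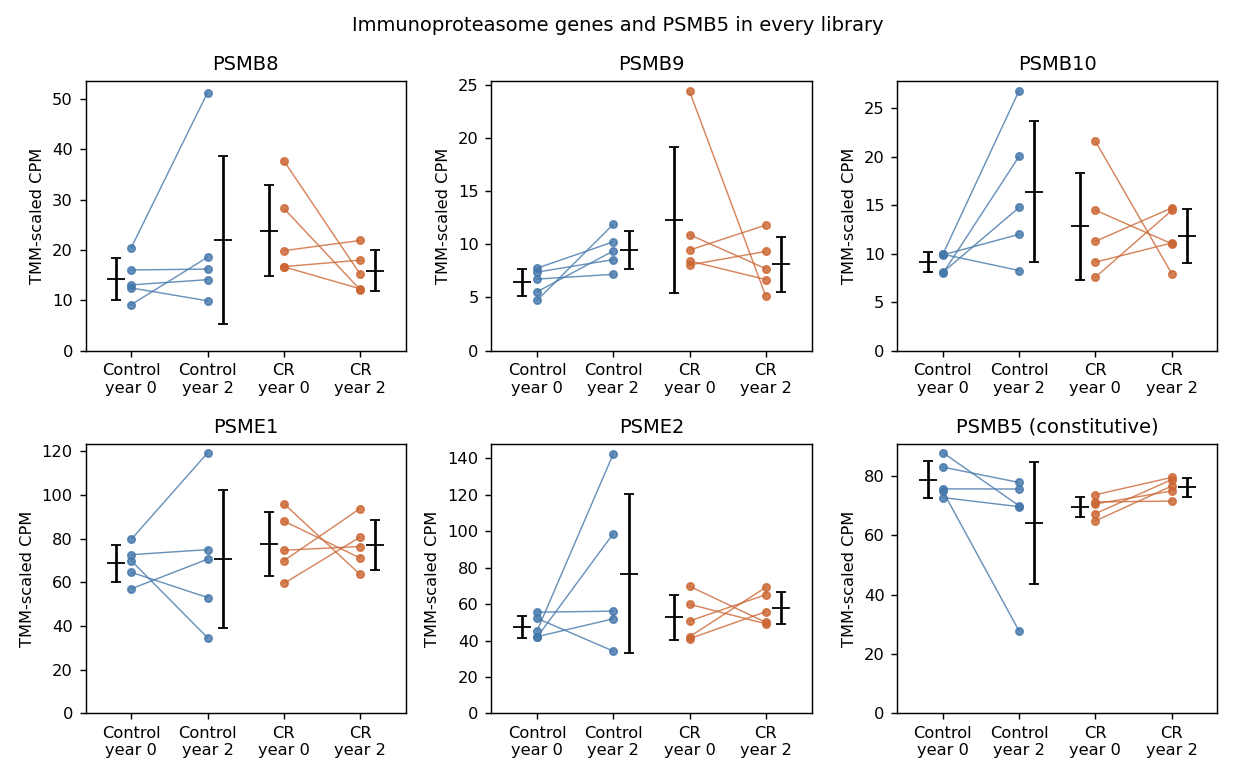
TMM-scaled CPM of the 5 immunoproteasome genes and of the constitutive subunit PSMB5 in every library; lines join the biopsies of an animal (Control in blue, CR in orange), and black marks are the mean and SD of 5 animals. PSMB9 in CR at year 0 lies between 8.06 and 24.4 CPM, above the Control range of 4.74 to 7.75 CPM, and PSMB5 is lowest at 27.7 CPM in Control 009 at year 2.

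Over 2 years in CR, no member passed the test (edgeR adjusted p, background 0.0%), and none had an unadjusted p under 0.05 (background 1.14% higher and 1.76% lower). All 14 core genes and 16 of 17 genes of the 19S had values above 0, with median log2 changes of 0.20 and 0.17 against 0.0012 over all 13730 genes. These changes share the CR libraries at year 0 with the comparison of the diets at year 0. In that comparison the core and 19S medians were -0.26 and -0.23. The changes in Control share the Control libraries at year 0 in the same way. In 14 members (29.8%), 9 of the core and 5 of the 19S, year 2 was higher in 5 of 5 animals, against 6.55% of all genes. In no member was it lower in all animals, against 5.64% of all genes.

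PSMA3 had the smallest p. In animals 004, 007, 008, 011 and 012 it went from 36.3, 25.8, 27.0, 32.4 and 29.2 CPM at year 0 to 38.1, 32.6, 29.7, 43.9 and 37.5 CPM at year 2. All 5 animals were higher at year 2, and the groups overlapped (log2 change 0.27, SE 0.14, edgeR adjusted p = 0.999). PSMB5 went from 73.7, 64.9, 71.3, 70.6 and 67.4 CPM to 79.6, 76.6, 71.6, 75.0 and 78.8 CPM in the same animals, all 5 higher and animal 008 nearly level (log2 change 0.13, SE 0.20, edgeR adjusted p = 0.999).

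PSMC6 (log2 change 0.25, SE 0.16), PSMB1 (0.29, SE 0.22), PSMD6 (0.28, SE 0.18) and POMP (0.18, SE 0.14) had the smallest p of their roles, all with an edgeR adjusted p of 0.999. By animal, the median change over the members was between 0.15 and 0.23 in 004, 007, 011 and 012, and -0.024 in 008. On the TPM scale the members' median change was 0.039, which lies 0.12 above the median of all genes.

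Markers of cell types were also followed over the 2 years in CR. Hepatocyte markers were higher at year 2 in 12 of 13 (median log2 change 0.12), and in 7 of 13 without animal 004 (median 0.034). Macrophage markers were lower in 18 of 18 (median -0.59, and -0.36 without 004), and their sum went from between 1399 and 1643 CPM to between 501 and 1492 CPM. Lymphocyte markers were lower in 20 of 23 (median -0.35, and -0.032 without 004) and endothelial markers in 11 of 13. No marker passed the test, and their part in the proteasome values was not tested.

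PSMB8 and PSMB9 had values below 0 in CR (log2 changes -0.54, SE 0.29, and -0.48, SE 0.33), and PSMB10 was at -0.037. The size of the PSMB9 change rested on animal 004, in which PSMB9 was 24.4 CPM at year 0 and 5.10 CPM at year 2. PSMB8 was at 37.7 and 15.2 CPM in that animal. The log2 change of PSMB8 was -1.31 in animal 004, -1.22 in 008 and -0.44 in 007. PSMB8 was higher at year 2 in 011 and 012. Without animal 004 the PSMB9 change was -0.076, the PSMB8 change -0.35 and the PSMB10 change 0.30. In the same animal the summed lymphocyte markers were 192 and 49.2 CPM and the macrophage markers 1635 and 501 CPM, and their part in these values was not tested.

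In Control animals, no member passed over 2 years (edgeR adjusted p, background 0.0%). At an unadjusted p under 0.05, PSMA6, PSMB2, PSMD10 and PSMD14 (8.51%) were lower, against 7.49% of all genes, and PSMB10 (2.13%) was higher, against 7.11%. The members' median log2 change was -0.11, against 0.0046 over all genes. The core stood at -0.18 and the 19S at -0.12, while the 3 immune catalytic subunits had a median of 0.56.

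Cell type markers were also followed over the 2 years in Control animals. Hepatocyte markers were lower at year 2 in 12 of 13 (median log2 change -0.51), and their sum went from between 193500 and 244600 CPM to between 54820 and 260000 CPM. Macrophage markers were higher in 17 of 18 (median 0.40), with sums of 826 to 2105 CPM at year 2. Lymphocyte markers were higher in 20 of 23 and endothelial markers in 11 of 13 (medians 0.32 and 0.45). Without Control 001 and 009 the medians were -0.43 for hepatocyte, 0.70 for macrophage, 0.38 for lymphocyte and 0.15 for endothelial markers. In 001 the lymphocyte sum went from 99.85 to 75.35 CPM and the macrophage sum from 744 to 1264 CPM. PSMB8, PSMB9 and PSMB10 changed there by 1.32, 0.40 and 1.43 (log2). In 005 these sums went from 92.1 to 116 and from 738 to 1454 CPM, and the subunits changed by -0.33, 0.093 and -0.27. In 006 the sums went from 60.1 to 149 and from 775 to 2105 CPM, and the subunits changed by 1.02, 1.33 and 0.87. In 009 the sums went from 87.7 to 185 and from 1318 to 1023 CPM, and the subunits changed by 0.11, 0.76 and 1.33. In 010 the sums went from 89.8 to 100 and from 1257 to 826 CPM, and the subunits changed by 0.016, 0.21 and 0.28. No marker passed the test, and their part in the proteasome values was not tested.

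PSMB2, of the beta ring, had the smallest p of all members. In animals 001, 005, 006, 009 and 010 it was at 52.2, 63.5, 57.9, 46.5 and 66.6 CPM at year 0. At year 2 it was at 51.2, 43.6, 44.04, 23.9 and 52.3 CPM. All 5 animals were lower at year 2, animal 001 only slightly (log2 change -0.45, SE 0.16, edgeR adjusted p = 0.309).

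PSMD14, a deubiquitinase of the 19S, was lower in the same 5 of 5 animals, with a mean of 24.4 ± 4.99 CPM at year 0 and 18.6 ± 4.17 CPM at year 2 (log2 change -0.40, edgeR adjusted p = 0.316). PSMD10, an assembly chaperone also called gankyrin, was at 12.2 ± 1.66 and 9.24 ± 3.57 CPM (log2 change -0.48, edgeR adjusted p = 0.321, and -0.27 without animal 001). PSMA6, of the alpha ring, was at -0.47 (SE 0.19), its lowest values at year 2 being 26.6 CPM in animal 001 and 22.0 CPM in 009, and PSMF1 was at -0.29 (SE 0.22). Without animal 009, PSMA6 was at -0.28 and PSMF1 at -0.024. Without 001 and 009 together, PSMD10 was at -0.11, PSMA6 at -0.12 and PSMF1 at 0.056, while PSMB2 and PSMD14 were at -0.41 and -0.31. In all, 5 members (POMP, PSMB2, PSMB5, PSMD10 and PSMD14), or 10.6%, were lower in every Control animal, against 4.81% of all genes. PSMB9 alone was higher in every Control animal, or 2.13% of members against 4.61% of all genes.

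PSMB10 had the largest value of the immunoproteasome genes. It was at 9.94, 9.94, 8.08, 7.97 and 9.88 CPM at year 0 in animals 001, 005, 006, 009 and 010, and at 26.8, 8.26, 14.8, 20.04 and 12.0 CPM at year 2. Animals 001 and 009 were highest at year 2 and animal 005 was lower (log2 change 0.74, SE 0.33, edgeR adjusted p = 0.334, and 0.32 without 001 and 009). PSME2 was also highest in those libraries, at 143 and 98.8 CPM, against 34.2 to 56.2 CPM in the other Control animals at year 2.

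On the CPM scale, the members moved in opposite directions in the 2 animals that stand apart. The median change over the members was 0.49 in animal 001, with 35 of 47 higher at year 2, and -0.60 in animal 009, with 37 of 47 lower. In 005, 006 and 010 it was -0.17, -0.28 and -0.014. The TMM factor went from 1.01 to 0.763 in animal 001 and from 0.9 to 1.66 in animal 009. A lower factor raises the CPM of every gene in a library and a higher factor lowers it. The part of these factors in the opposite medians was not tested. In animal 001, PSMB3 was at 36.4 CPM at year 0 and 152 CPM at year 2, where the other Control animals had 31.2 to 39.3 CPM. In animal 009, PSMB5 was at 74.9 and 27.7 CPM, where the others had 69.7 to 77.9 CPM at year 2. In TPM the lowest PSMB5 of Control at year 2 was that of animal 001, at 82.5, in a group that reached 178.

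The ATPase PSMC5 was high at year 2 in both, at 223 CPM in 001 and 187 CPM in 009, against 79.0 to 110 CPM in the other Control animals (log2 change over all 5 animals 0.39, edgeR adjusted p = 0.477). Without 001 that change was 0.12, and without both -0.19. The median change over the members was 0.048 without animal 009, -0.24 without 001 and -0.11 without both. The core median was -0.19 and the 19S median -0.15 without both. On the TPM scale the members' median was 0.019, which lies 0.10 below the median of all genes.

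The difference between the diets in the change over 2 years was tested as an interaction, and no member passed (edgeR adjusted p, background 0.0%). The core and 19S genes had values above 0 in 13 of 14 and 16 of 17, with medians of 0.40 and 0.27 against 0.0076 over all genes. At an unadjusted p under 0.05, POMP, PSMA3, PSMB2, PSMD10 and PSMD14 (10.6%) were above 0, against 2.64% of all genes, and PSMB8 and PSMB9 (4.26%) were below 0, against 4.21%. These values share the year 0 libraries with the comparison at year 0. Hepatocyte markers were above 0 in 13 of 13 (median 0.49), and macrophage, lymphocyte and endothelial markers were below 0 in 18 of 18, 23 of 23 and 13 of 13 (medians -1.01, -0.83 and -0.80). These medians without Control 001 and 009 were 0.52, -1.32, -0.71 and -0.33. No marker passed the test, and their part in the proteasome values was not tested.

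PSMB2 had the smallest p, with an interaction of 0.61 (SE 0.23, edgeR adjusted p = 0.681), followed by PSMA3 at 0.52 (SE 0.19). PSMB9 and PSMB8 were at -1.04 (SE 0.46) and -0.97 (SE 0.40), with edgeR adjusted p of 0.720 and 0.706. PSMB10 was at -0.77 (SE 0.46), while PSME1 and PSME2 were at 0.068 and -0.37. Without CR animal 004, PSMB9 was at -0.63, PSMB10 at -0.43 and PSMB8 at -0.77. Without Control 001 and 009, PSMB10 was at -0.36, and PSME1 and PSME2 turned to -0.047 and 0.23. The median over the members was 0.24, and 0.082 without Control 009, 0.39 without Control 001 and 0.25 without both. On the TPM scale it was -0.014, or 0.19 above a median of -0.20 over all genes.

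**Figure D4:**
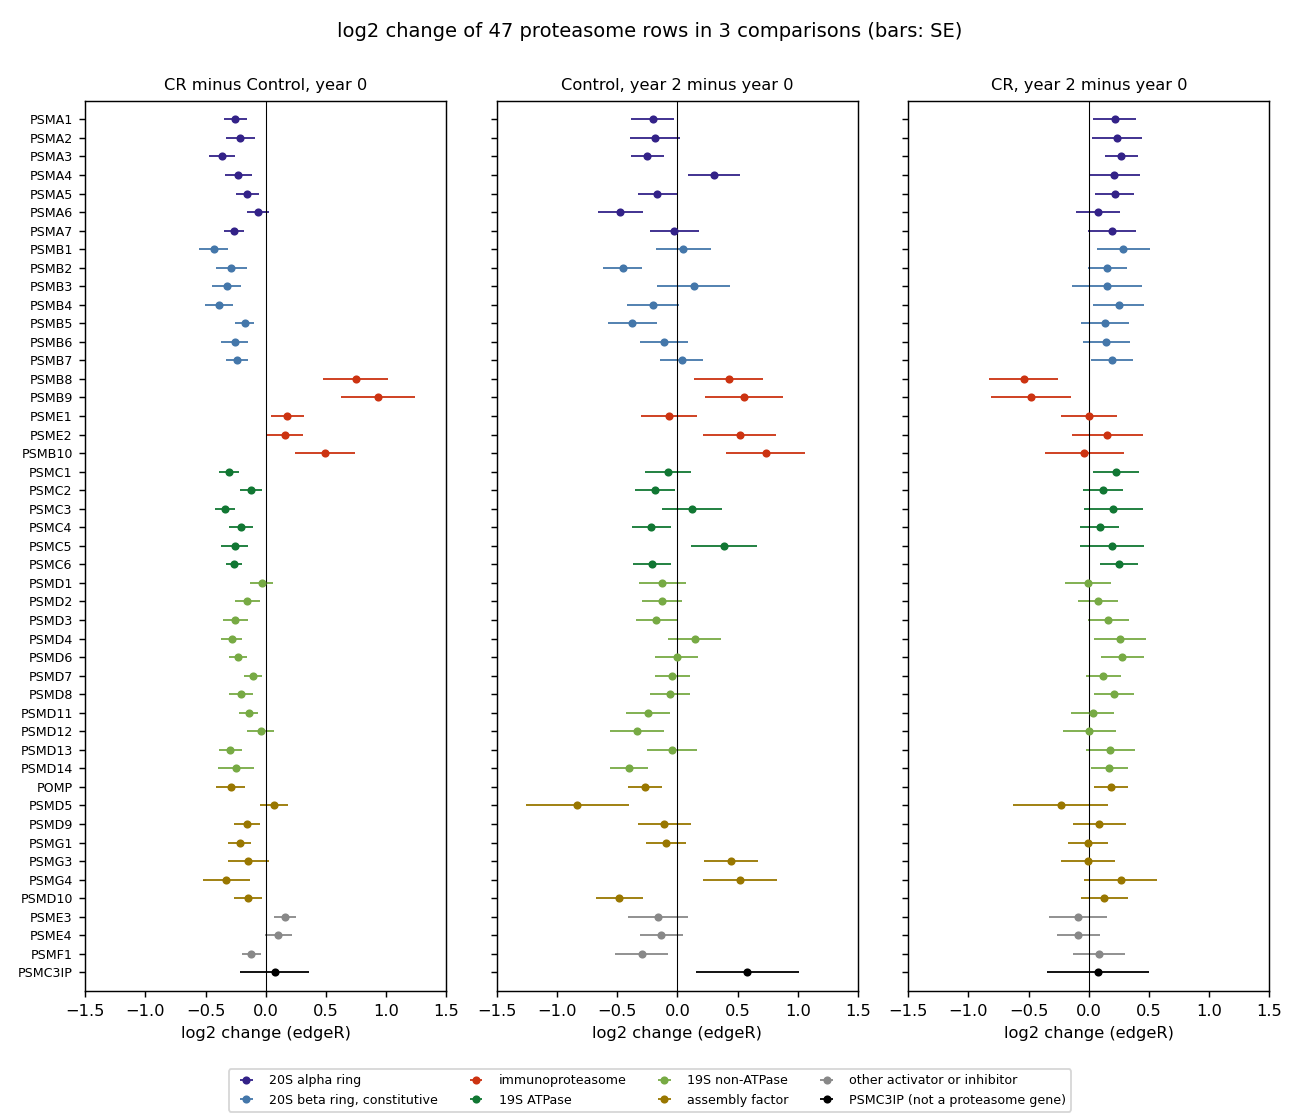
Log2 change with its SE for the 47 genes in the comparison of CR with Control at year 0 (left), the change over 2 years in Control (middle) and in CR (right), ordered and coloured by role. At year 0 the core and 19S genes lie left of 0 and the immunoproteasome genes right of it, with PSMB9 farthest at 0.93. No gene passed an adjusted p of 0.05 by edgeR.

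At year 2, no member passed between CR and Control (edgeR adjusted p, background 0.0%), none had an unadjusted p under 0.05 (background 1.15% higher and 5.88% lower), and none was without overlap (background 0.375% above and 0.382% below). The median log2 difference was 0.0062 in the core and 0.034 in the 19S, against -0.067 over all 13345 genes. PSMG3, a partner of PSMG4 in alpha ring assembly, had the smallest p (log2 difference -0.85, SE 0.39, edgeR adjusted p = 0.659), and its difference was -0.28 without Control 001. It was at 46.8 CPM in Control 001, at 8.402 to 17.6 CPM in the other Control animals and at 9.78 to 12.1 CPM in CR. PSMC5, PSMB3 and PSMA4 were at -0.58 (SE 0.30), -0.69 (SE 0.42) and -0.40 (SE 0.24), each high in Control 001, and PSMD14 was at 0.29 (SE 0.19). Without Control 001, PSMB3 turned to 0.067, and PSMC5 and PSMA4 were at -0.33 and -0.22. Without Control 001 and 009, PSMC5 and PSMA4 turned to 0.017 and 0.023, and PSMD14 was at 0.096. In all, leaving out 1 animal turned the sign of 25 of the 47 members, 13 of them without Control 001 and 11 without Control 009.

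On the CPM scale, the spread among Control animals at year 2 was wide. The mean log2 CPM of the core had an SD of 0.43 there, against 0.081 in CR at year 2, 0.13 in Control at year 0 and 0.10 in CR at year 0. In TPM this held for some core genes and not for others. The SD in Control was 27.4 TPM at year 0 and 19.6 TPM at year 2 for PSMB4, and 7.31 and 41.6 TPM for PSMB5. The year 2 differences of PSMB8, PSMB9 and PSMB10 were -0.48, -0.22 and -0.47 (edgeR adjusted p = 0.720, 0.785 and 0.676). The PSMB10 difference without Control 001 and 009 was 0.020, and without CR 004 that of PSMB9 was -0.093. PSMB8 was at 51.2 CPM in Control 001 and at 9.91 to 18.6 CPM in the other Control animals, against 12.1 to 21.9 CPM in CR. Without Control 001 its difference was 0.11, the opposite sign. The members' median was -0.12 without Control 009, 0.12 without Control 001 and 0.021 without both. At year 2, macrophage, lymphocyte and endothelial markers were lower in CR for 16 of 18, 20 of 23 and 10 of 13, and hepatocyte markers higher for 7 of 13, none past the test, and their part in these values was not tested.

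The balance of immune and constitutive catalytic subunits was followed as the TPM ratio within a library of PSMB8 to PSMB5 (the chymotrypsin-like site), PSMB9 to PSMB6 (caspase-like) and PSMB10 to PSMB7 (trypsin-like). The immune subunit was the less abundant of each pair in all 20 libraries. With 15 tests in this family, no difference passed after Benjamini-Hochberg adjustment. The smallest p that these designs allow is 0.0625 for a change in 5 animals and 0.00794 for 5 animals against 5.

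The PSMB9 to PSMB6 ratio at year 0 was between 0.0514 and 0.115 in Control and between 0.116 and 0.365 in CR. The groups met without overlapping, and animal 004 was far above the others in CR, which reached 0.151 at most. The difference was 1.07 on the log2 scale (SE 0.36, two-sided exact permutation p = 0.00794, the smallest possible, adjusted p = 0.119), and 0.77 without animal 004.

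The PSMB8 to PSMB5 ratio at year 0 was 0.169 ± 0.0612 in Control and 0.311 ± 0.104 in CR (SD, n = 5 each; log2 difference 0.90, SE 0.31, two-sided exact permutation p = 0.0317, adjusted p = 0.198). In CR at year 0 it was highest in animal 004, at 0.469, against 0.227 to 0.364 in the others. At year 2 the ratio was 0.340 ± 0.228 in Control and 0.191 ± 0.0490 in CR. It was highest at year 2 in Control 001 and 009, at 0.676 and 0.467, against 0.117 to 0.243 in the other Control animals. Control 001 had both the highest PSMB8 and the lowest PSMB5 of Control at year 2, at 55.75 and 82.48 TPM. Over the 2 years the ratio was higher in 4 of 5 Control animals and lower in 4 of 5 CR animals, and the changes differed by -1.49 between the diets (SE 0.48, two-sided exact permutation p = 0.0397, adjusted p = 0.198). The PSMB10 to PSMB7 ratio at year 0 was 0.127 ± 0.0172 in Control and 0.218 ± 0.113 in CR (log2 difference 0.64, SE 0.34, two-sided exact permutation p = 0.0952, adjusted p = 0.234), and that difference was 0.39 without animal 004.

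**Figure D5:**
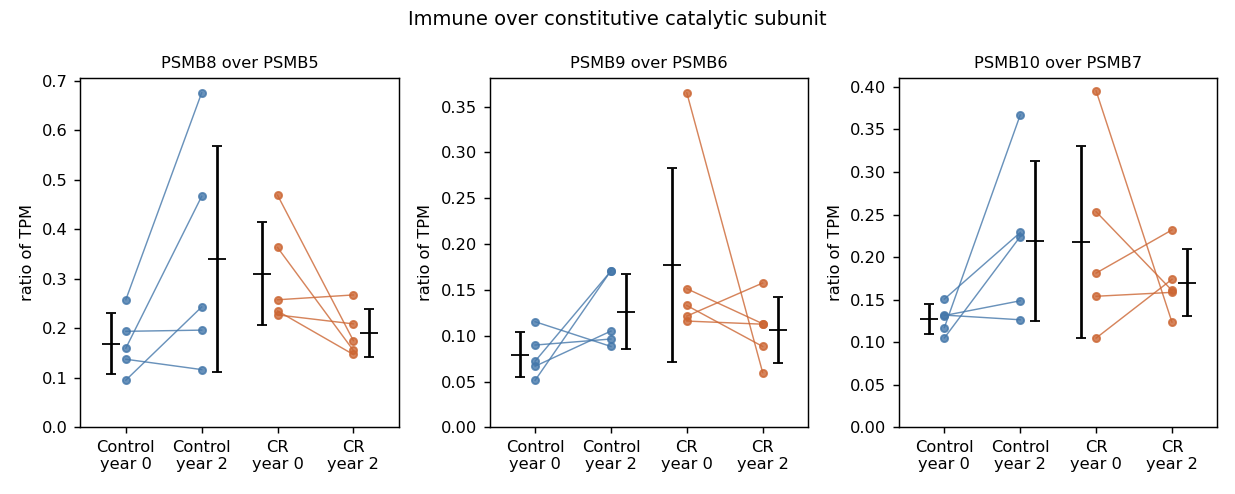
Ratio of TPM of each immune catalytic subunit to the constitutive subunit it replaces, in every library; lines join the biopsies of an animal (Control in blue, CR in orange), and black marks are the mean and SD of 5 animals. All ratios lie below 1, and Control 001 at year 2 has the highest PSMB8 to PSMB5 ratio at 0.676.

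PSMB8 and PSMB9 lie in the class II region of the major histocompatibility complex beside TAP1 and TAP2, the peptide transporter genes, and PSME1 and PSME2 are near neighbours with EMC9 between them. Reads of overlapping neighbours cannot be told apart where counting ignored strand, and the labels and headers used here name no strand setting. TAP2 and TAP1, taken up for their position after their values were seen, had log2 differences of 0.55 (SE 0.24) and 0.40 (SE 0.27) at year 0. Without animal 004 these were 0.34 and 0.049. TAP1 was highest in CR 004 at year 0 (32.3 CPM) and in Control 009 at year 2 (40.2 CPM), against 8.67 to 20.4 CPM in the other 18 libraries.

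Of 24 genes of class I presentation and interferon-regulated transcription, none passed in any comparison by edgeR, although 17 of 24 were higher in CR at year 0 (median log2 difference 0.39). CIITA, the master regulator of class II genes, had the smallest p of these. It was at 2.91, 2.39, 1.71, 2.00 and 2.54 CPM in Control 001, 005, 006, 009 and 010 at year 0, and at 6.49, 4.29, 6.26, 5.76 and 3.43 CPM in CR 004, 007, 008, 011 and 012. The groups did not overlap (CIITA log2 difference 1.19, SE 0.21, edgeR adjusted p = 0.0533).

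The interferon-induced GTPase GBP1 (1.40, SE 0.34) and the myeloid and B cell transcription factor IRF8 (0.64, SE 0.17) followed at year 0, with edgeR adjusted p of 0.0862 and 0.102. CIITA also had the smallest p of the list in the interaction (-1.71, SE 0.47, edgeR adjusted p = 0.668), in the change in CR (-0.78, SE 0.33) and at year 2 (-0.66, SE 0.38; -0.31 without Control 001 and 009). GBP2, another interferon-induced GTPase, had it in Control (log2 change 1.03, SE 0.30, edgeR adjusted p = 0.297), being higher at year 2 in each of the 5 Control animals.

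Of 33 tested genes among 36 other proteasome and ubiquitin genes, none passed in any comparison. At year 0, 23 of 33 were lower in CR (median log2 difference -0.092). The smallest p were those of TXNL1, a thioredoxin-like protein bound to the 19S (-0.24, SE 0.073), PAAF1, a chaperone of the 19S ATPases (-0.39, SE 0.12), and ZFAND5, which activates the proteasome (-1.08, SE 0.40), with edgeR adjusted p of 0.138, 0.145 and 0.2001. NFE2L1, the transcription factor that raises proteasome genes when the proteasome is inhibited, was at -0.017 (edgeR adjusted p = 0.949). It was singled out for its role after its value was seen.

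USP14, another deubiquitinase of the 19S, had the smallest p in Control (log2 change -0.54, SE 0.25, edgeR adjusted p = 0.342), followed by the shuttle factors UBQLN2 (-0.53) and UBQLN1 (-0.49). With Control 001 and 009 left out, USP14 was at -0.0024, UBQLN2 at -0.11 and UBQLN1 at 0.035. The ubiquitin receptor ADRM1 had it in CR (log2 change 0.28, SE 0.17, edgeR adjusted p = 0.999).

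Transcript usage could be tested in 3 members, PSMA1, PSMA4 and PSMD10, each with 2 transcripts of sufficient share, and in none did it pass (edgeR adjusted p). Of 1180 genes tested, 0.254% passed in Control, 0.0% in CR, 0.169% in the interaction, 0.169% at year 0 and 0.0% at year 2. The main transcript of PSMD10 held 92.2 ± 1.92% of the gene's counts in Control and 92.4 ± 2.98% in CR at year 0 (SD, n = 5 each). That of PSMA4 held 87.5 ± 16.4% and 95.4 ± 7.10%, and its share varied between animals more than those of PSMD10 and of PSMA1 did (91.5 ± 1.74% and 90.6 ± 1.98%).

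The authors' deposited table of log2 fold changes does not name its comparison and lists 3071 genes, 16 of them members. In the authors' deposited table, 15 members were above 0, and 61.2% of all listed genes were. PSMB9 was the member below 0 in the authors' deposited table (log2 fold change -1.16, adjusted p = 0.0348) and the only member under 0.05, against 16.7% of all listed genes. The authors' deposited table gives PSMB2, PSMD14 and PSMA3 log2 fold changes of 0.48, 0.45 and 0.39 with adjusted p of 0.0742, 0.0892 and 0.0932.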

How the data were processed

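Expected counts for genes and for transcripts were deposited by the authors, estimated from the reads without normalization, and TPM (scaled to a fixed total per library). The authors' deposited table of an unnamed comparison gives log2 fold changes and p-values, per the file headers. Per the submitters' processing notes, STAR, RSEM and DESeq2 were used (no versions) with Mmul_8.0.1 (rheMac8). RNA was made into TruSeq libraries and read in pairs, per the labels' protocols. For annotation, trimming and strand, the settings were not given in the sources used here.

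Expected counts were rounded, filtered with filterByExpr, scaled by TMM and tested for all genes with edgeR 4.0.16 (R 4.3.3; quasi-likelihood F test, robust, two-sided, Benjamini-Hochberg adjustment, threshold 0.05). Changes over 2 years and the interaction came from 1 fit of 20 libraries with a term per animal, and the diets were compared at each year in fits of 10 libraries. SE was the log2 change divided by the square root of F. DESeq2 1.42.0 and limma 3.58.1 on log2(TPM + 1) or log2(TPM + 0.1) were alternatives. Catalytic subunit ratios were tested by exact permutation of animals. Transcript share was tested with diffSpliceDGE of edgeR (at least 10 counts in 5 libraries, mean share at least 5%). Scripts were tested on simulated data.

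The pairing comes from the labels, where both biopsies carry 1 animal number. Deviations from the group means correlated within an animal at between -0.31 (005) and 0.20 (004). Replicates are separate animals, with 1 library per biopsy.

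The members and lists were chosen with earlier results of these data known. Named were all immunoproteasome genes and PSMB5, PSMB6 and PSMB7, members called in any comparison, the member of smallest p per role and comparison, the members of highest and lowest TPM per role, and up to 3 genes of smallest p per comparison from the other lists. Position came from gene order in RefSeq's table of another assembly, T2T-MMU8v2.0, and all 49 symbols matched it. PSMG2 and sequences of the members were not analysed here.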

Additional observations from a re-analysis of the deposited data

Results flagged for a closer look

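Single libraries far from the other 4 of their group were looked for in 128 groups of 5 values, and 9 were found, where chance gives about 1 in 20 groups. In Control at year 2, animal 001 was far above the others for PSMB1 (204 CPM, others 71.6 to 91.5), PSMB3 (152 CPM, others 31.2 to 39.3) and PSMC3 (124 CPM, others 42.1 to 48.0). In the same group, animal 009 was far below the others for PSMB2 (23.9 CPM, others 43.6 to 52.3) and PSMB5 (27.7 CPM, others 69.7 to 77.9). In TPM the lowest PSMB5 of the group was that of animal 001. These are the libraries that stand apart in albumin share and scaling factor, and the part of either in these values was not tested.

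In CR at year 0, animal 004 was far above the others for PSMB9 (24.4 CPM, others 8.06 to 10.9) and for the PSMB9 to PSMB6 ratio (0.365, others 0.116 to 0.151). In CR at year 0, PSME3 was lowest in animal 012 (30.8 CPM, others 35.1 to 37.1). In Control at year 0, PSMA4 was lowest in animal 009 (31.6 CPM, others 41.7 to 45.3).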

How the results depend on the processing

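Across the alternatives, values of single genes were counted for the immune and constitutive catalytic subunits only. Of these values, 523 kept their direction and side of the threshold, 16 reversed and 1 was stronger. Among values of whole comparisons and ratios, 386 kept both, 3 reversed and 7 moved otherwise. The other members were not among the single-gene values, and the sign turns over all members are given in the next paragraph. On the TPM scale the members' median was 0.039 (either pseudocount) for the change in CR, and -0.036 (log2(TPM + 1)) and -0.037 (log2(TPM + 0.1)) at year 0. At year 0 the members called numbered 9 with DESeq2, 0 to 1 leaving out each animal and 3 without Control 001 and 009, against 0. All genes passed at 0.0225% to 2.55% leaving out each animal and at 1.69% without Control 001 and 009, against 0.242%. With DESeq2, 3.58% of all genes were called higher in CR and 2.31% lower. Without the replicate block, the members' median was 0.14 in CR, -0.063 in Control and 0.20 for the interaction, and no call changed.

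Leaving out 1 animal turned the sign of 8 of 47 members in CR, 19 in Control, 12 for the interaction, 4 at year 0 and 25 at year 2. Of the 6 catalytic subunits and their ratios, those that reversed, none past a threshold, were as follows. Leaving out each animal, PSMB10 in CR ran from -0.28 to 0.30 (0.30 without 004, 0.063 without 008), and PSMB6 in Control from -0.32 to 0.022 (0.022 without 005, 0.0023 without 009). PSMB6 in Control was 0.019 on both TPM scales. PSMB7 in Control ran from -0.15 (without 001) to 0.14 and was -0.089 without 001 and 009, and its interaction was -0.086 on both TPM scales. At year 2, PSMB8 ran from -0.66 to 0.11, PSMB6 from -0.17 to 0.13 and PSMB7 from -0.25 to 0.063, each highest without 001. Without 001 and 009 at year 2, PSMB8 was 0.094, PSMB6 0.032, PSMB10 0.020, the PSMB8 to PSMB5 ratio 0.071 and the PSMB10 to PSMB7 ratio 0.042. The PSMB10 to PSMB7 ratio in CR ran from -0.48 to 0.12 (without 004). The cause was not tested.

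With 5 animals a group and 2 Control libraries that stand apart at year 2, small differences were not detectable there.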
